A study of Mus musculus with 23 samples.

Results

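The clustered protocadherins were followed in the adult mouse brain after 3 maternal diets. All probes of the array whose gene name places them in the alpha, beta or gamma protocadherin cluster were taken, which gave 38 probes for 35 genes among 39429 probes with 31829 names. The alpha cluster had 9 probes for 7 genes, the beta cluster 22 probes for 22 genes, and the gamma cluster 7 probes for 6 genes. Most gamma genes, including the C-type genes Pcdhgc3 and Pcdhgc4, had no probe under their own name.

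RNA came from the whole brain, cerebrum and cerebellum together, of male C57BL/6J mice at 19 weeks of age, with 4 mice per group and 1 one-colour Agilent array per mouse. The groups differed in what the recipient mothers ate. The CD group had mothers on a control diet with 20% casein and 0.02% folic acid, the PR group on a protein-restricted diet with 5% casein and 0.02% folic acid, and the FA group on the PR diet with folic acid raised to 0.1%. All mice came from in vitro fertilized C57BL/6J embryos whose parents ate a normal diet, and these embryos were transferred to outbred ICR females that had eaten the diets since 1 month before transfer and did so until delivery. Pups were delivered by cesarean section and given to ICR foster mothers. The study's text gives the diet of the foster mothers in differing ways, in places as the CD and in places as the experimental diets, so it is not settled here. All progenies ate the CD after weaning and went through behavioral tests before the brains were collected. The labels do not say which mice shared a mother, so p-values measured the spread between these mice. A brain region cannot be resolved in such samples, and fewer cells of a type and less RNA per cell cannot be told apart.

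Clustered protocadherins are cell surface adhesion proteins that bind the same isoform on a neighbouring cell and are known for letting neurites of 1 neuron recognize and avoid each other. Each isoform has its own large variable exon with its own promoter, and single neurons use a few of these promoters, a choice that involves DNA methylation, CTCF and cohesin. In the alpha and gamma clusters every variable exon is spliced to constant exons that all transcripts of the cluster share, so a probe in the constant exons reads many isoforms at once. Beta genes have no constant exons and each consists of its variable exon.

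In mm9, the build of the files, all members lay on the plus strand of chromosome 18, with the alpha probes within chr18:37114742-37347294, the beta probes within chr18:37427011-37680728 and the gamma probes within chr18:37823813-38001437. The probe named Pcdhac2 at chr18:37347235-37347294 was listed with accessions of Pcdha4, Pcdha9, Pcdhac1 and Pcdhac2 and lay downstream of all alpha variable exon probes; it is called the alpha shared end here. Both probes named Pcdhga9, at chr18:37999725-37999784 and chr18:38001378-38001437, were listed with accessions of Pcdhga1, Pcdhga5, Pcdhga6 and Pcdhga9 and lay downstream of all gamma variable exon probes. They are called gamma shared end 1 and gamma shared end 2. That these 3 probes lie in constant exons was taken from their accessions and position and was not checked against an mm9 annotation. Of the 2 probes named Pcdha8, the one at chr18:37154205-37154264 was also listed with Pcdha4 and Pcdha7 and is called the Pcdha8 shared probe. The other 34 probes were listed with accessions of 1 gene each. The files list at most 4 accessions per probe, so further isoforms may match a shared probe.

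Values are log2 of the deposited qspline-normalized signal, and differences were tested with limma over all 39429 probes with Benjamini-Hochberg adjustment, a probe being called at an adjusted p under 0.05. Each probe has its own response, so levels of different probes were not read as levels of expression against each other. Well above background means the scanner's flag for a signal clearly over the local background, which 28 of the 38 member probes carried on all 12 arrays. Pcdhb1 carried it on no array, and 9 probes on some arrays (Pcdha8, Pcdhac1, Pcdhb2, Pcdhb8, Pcdhb11, Pcdhb19, Pcdhga1, Pcdhga5 and Pcdhga10). By cluster, 7 of 9 alpha, 17 of 22 beta and 4 of 7 gamma probes were well above background throughout. The CD arrays were dimmer, with 27068 to 28458 spots over background against 31266 to 33478 on PR and 30408 to 31672 on FA arrays. Each diet was run on a slide and in a scan of its own, so diet, slide and scan cannot be told apart for any result. Neuronal markers were well above background on all arrays with all 5 of their probes.

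By median, the members as a whole differed little between PR and CD and lay somewhat lower in FA than in either. In PR against CD, 5 of 38 member probes (13.2%) were called lower, against 16.6% of all probes, and 4 (10.5%) were called higher, against 13.4%. In FA against CD, 9 members (23.7%) were called lower against 18.0% of all probes, and 4 (10.5%) higher against 16.4%. These shares lay near those of the array. In FA against PR, 2 members (5.26%) were called lower against 0.386% of all probes, and 0 higher against 0.228%; at an unadjusted p under 0.05 limma gave 1 member higher, and the methods' Tukey test with Benjamini-Hochberg adjustment called 0. The median log2 difference of the members was 0.01 for PR minus CD, -0.16 for FA minus CD and -0.08 for FA minus PR, beside -0.02, -0.01 and 0.02 over all probes. At the study's own limits, a 2-fold change at an adjusted p under 0.0001, limma called 0 members in each comparison, where it called 0.0862%, 0.195% and 0% of all probes; at an unadjusted p under 0.05 it gave 6 members lower and 9 higher for PR minus CD, 14 and 5 for FA minus CD, and 7 and 1 for FA minus PR. No share of all probes at the unadjusted limit is given here, so these counts and those of the lists below cannot be set against the array. Values did not overlap between groups for 13 members in PR and CD, 11 in FA and CD, and 7 in FA and PR, against 33.2%, 36.9% and 11.1% of all probes. PR minus CD and FA minus CD share the CD arrays, so a like sign in both is not 2 independent results.

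**Figure D1:**
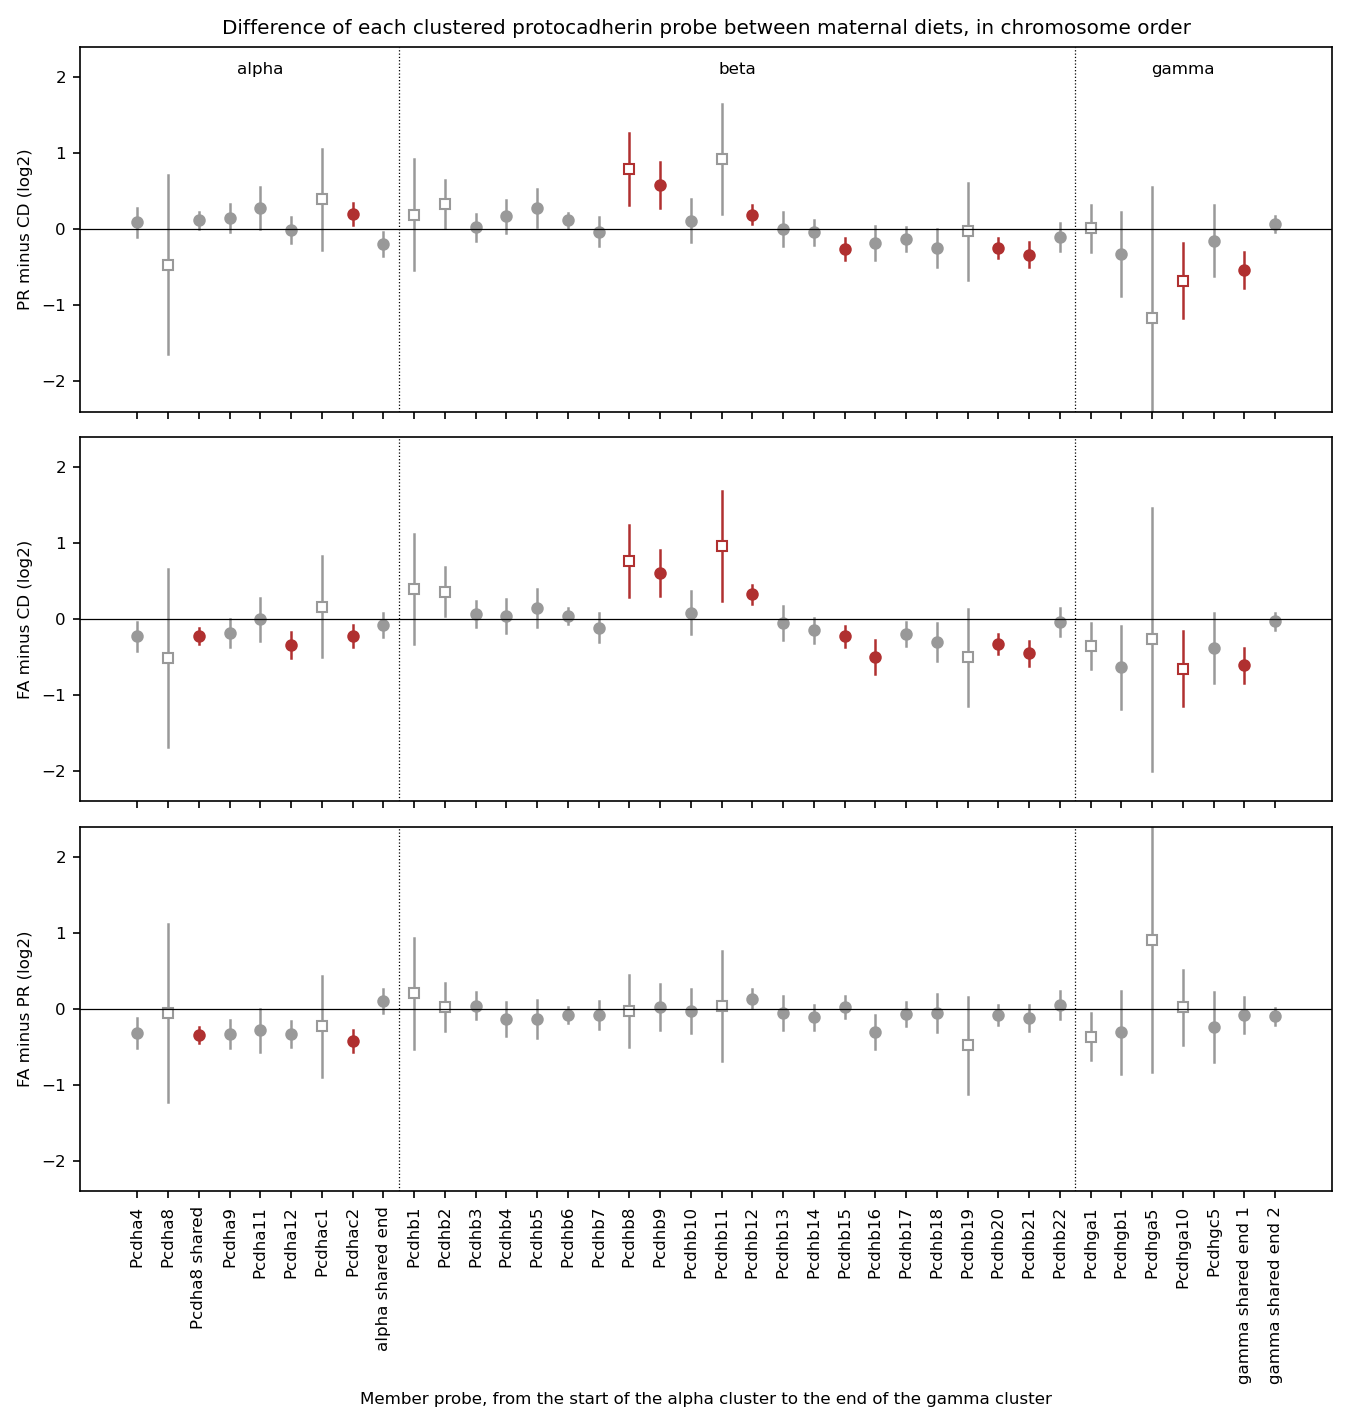
The log2 difference of each of the 38 member probes (points, with the 95% confidence interval as a line) is shown in chromosome order for PR minus CD, FA minus CD and FA minus PR. Red marks a limma adjusted p under 0.05, and open squares mark probes without the background flag on 1 or more arrays. The beta cluster shows higher values of Pcdhb8 to Pcdhb12 and lower values of Pcdhb15 to Pcdhb21 in both comparisons with CD, and the alpha cluster lies below 0 in FA minus PR up to its shared end.

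Alpha variable exons lay lower in the FA than in the PR group. The 6 variable exon probes flagged over background on every array (Pcdha4, the Pcdha8 shared probe, Pcdha9, Pcdha11, Pcdha12 and Pcdhac2) were all below 0 in FA minus PR, with a median of -0.33. Of the 6, 2 were called lower, against 0.386% of all probes. The alpha shared end, listed with 4 of the alpha isoforms, differed by 0.11 and was not called. Alpha proteins carry a cytoplasmic part encoded by the constant exons, and the variable exon gives each its adhesive outer part.

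The Pcdha8 shared probe, which was listed with alpha isoforms Pcdha4, Pcdha7 and Pcdha8, read 10.69, 10.75, 10.69 and 10.77 in the CD mice, 10.93, 10.85, 10.78 and 10.80 in the PR mice, and 10.58, 10.46, 10.43 and 10.54 in the FA mice. All FA values lay under all CD values and all CD values under all PR values. It was called lower in FA than PR by -0.34 ± 0.05 (SE, n = 4 per group; limma adjusted p = 0.0241) and lower in FA than CD by -0.22 ± 0.05 (limma adjusted p = 0.00526). PR minus CD was 0.12 (limma adjusted p = 0.0933).

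Pcdhac2 is a C-type alpha isoform, made by many neurons rather than chosen cell by cell, and is known for the spacing of serotonergic axons. Its variable exon probe, at chr18:37305687-37305745, read 8.61, 8.66, 8.56 and 8.66 in CD, 9.02, 8.77, 8.72 and 8.78 in PR, and 8.44, 8.33, 8.40 and 8.44 in FA. The 3 groups did not overlap, with PR highest and FA lowest. Pcdhac2 was called in all 3 comparisons, at 0.20 ± 0.06 for PR minus CD (limma adjusted p = 0.0381), -0.22 ± 0.06 for FA minus CD (limma adjusted p = 0.0213) and -0.42 ± 0.06 for FA minus PR (limma adjusted p = 0.0311; a 1.34-fold difference). Of 7 serotonergic neuron marker probes, 1 was called higher in PR than CD, next to 13.4% of all probes, and 0 were called in FA against CD or PR. The log2 of their summed signal overlapped between groups, from 12.82 to 13.11 in CD, 12.79 to 13.05 in PR and 12.65 to 13.24 in FA.

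Both FA minus PR calls were close to the threshold. Without PR mouse 2, or FA mouse 2, 3 or 4, limma called 0 members lower in FA than PR, and without PR mouse 1 or 4 it called 1. A fit of only the PR and FA arrays also called 0, with an adjusted p of 0.0686 for the Pcdha8 shared probe and 0.0741 for Pcdhac2. The differences themselves stayed between -0.36 and -0.31 for the Pcdha8 shared probe and between -0.45 and -0.30 for Pcdhac2 over 20 limma alternatives. Against CD, the PR call of Pcdhac2 was lost without CD mouse 1, 2 or 3, PR mouse 1 or 4, or FA mouse 1 or 3, and in the fit of 2 groups, at adjusted p values up to 0.0924. Its FA call was lost with normexp background correction, where the difference was -0.11 (adjusted p = 0.13), and without CD mouse 2 or FA mouse 2.

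Of the remaining variable exon probes flagged on every array, none was called in FA minus PR, and their differences ran from -0.33 to -0.28. Pcdha9 read 8.76, 8.61, 8.65 and 8.61 in CD, 8.96, 8.71, 8.76 and 8.79 in PR, and 8.63, 8.33, 8.36 and 8.59 in FA. PR and FA did not overlap, and FA minus PR was -0.33 (limma adjusted p = 0.104). Pcdha12 read 8.60, 8.76, 8.59 and 8.60 in CD, 8.62, 8.70, 8.45 and 8.74 in PR, and 8.19, 8.36, 8.25 and 8.41 in FA. Every FA value of Pcdha12 lay under every CD and every PR value. Pcdha12 was called lower in FA than CD by -0.34 ± 0.08 (limma adjusted p = 0.00651), and its FA minus PR difference was -0.33 (limma adjusted p = 0.0856).

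Pcdha4 ranged from 7.85 to 8.01 in CD, 7.97 to 8.21 in PR and 7.59 to 7.95 in FA, with FA minus PR at -0.32 (limma adjusted p = 0.14). Pcdha11 ranged from 7.02 to 7.24 in CD, 7.28 to 7.69 in PR and 6.79 to 7.34 in FA, with FA minus PR at -0.28 (limma adjusted p = 0.358). Only in Pcdha11, among the 6 variable exon probes flagged on every array, did the PR and FA values overlap. Over all probes, 11.1% had no overlap between PR and FA. Pcdhac1, the other C-type alpha isoform, was well above background on 1 PR and 1 FA array and no CD array. Pcdhac1 read 3.61, 3.99, 3.70 and 2.51 in CD, 3.60, 3.91, 3.83 and 4.04 in PR, and 4.05, 3.39, 3.19 and 3.83 in FA, and these values overlapped in every comparison. The other Pcdha8 probe, listed with that gene alone, carried the flag on 2 CD arrays and on each PR and FA array. It ranged from 4.15 to 7.11 in CD, 4.58 to 5.08 in PR and 4.61 to 4.88 in FA, with FA minus PR at -0.05 (limma adjusted p = 0.981).

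**Figure D2:**
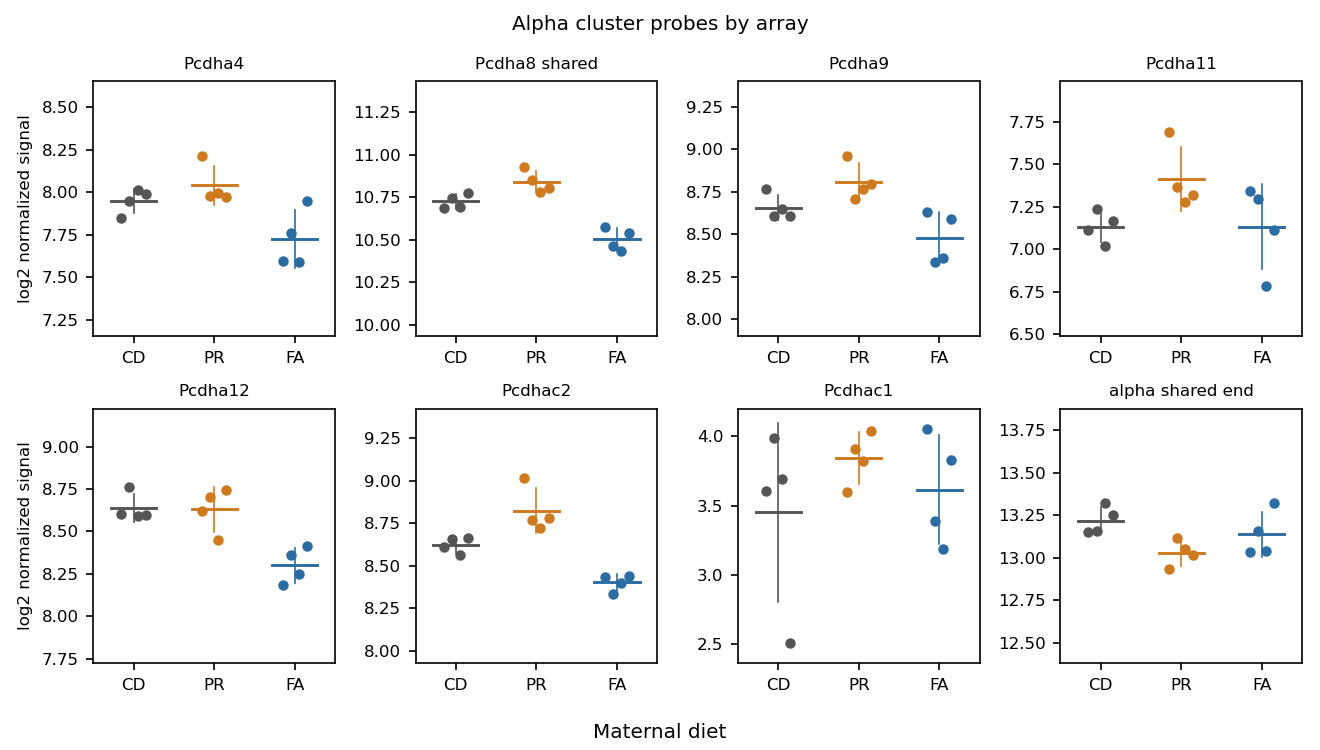
Points show the log2 normalized signal of 8 alpha cluster probes in each of the 12 brains by maternal diet, with the group mean (horizontal line) and SD (vertical line, n = 4); each panel has its own vertical range. FA values lie lowest in the Pcdha8 shared probe, Pcdha12 and Pcdhac2 and do not overlap those of PR, while the alpha shared end ranges from 12.94 to 13.12 in PR and from 13.03 to 13.32 in FA.

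The alpha shared end was not called in any comparison. It read 13.15, 13.16, 13.32 and 13.25 in CD, 12.94, 13.12, 13.05 and 13.01 in PR, and 13.03, 13.15, 13.04 and 13.32 in FA. All PR values lay under all CD values, but the difference of -0.19 was not called (limma adjusted p = 0.0716); it was called with 75th percentile scaling (adjusted p = 0.025) and without FA mouse 4 (adjusted p = 0.0367). The FA minus PR difference of 0.11, with a 95% confidence interval from -0.05 to 0.27, was not called either (limma adjusted p = 0.559). Within an array, the mean of the 6 variable exon probes minus the shared end, whose zero point is set by the probes and has no meaning of its own, was -4.60 ± 0.10 in CD, -4.27 ± 0.17 in PR and -4.71 ± 0.10 in FA (mean ± SD, n = 4). The 4 PR brains, from -4.39 to -4.03, lay above all 4 CD brains, from -4.73 to -4.50, and all 4 FA brains, from -4.81 to -4.57, while CD and FA overlapped.

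The mean of the 6 variable exon probes alone was 8.62 ± 0.03 in CD, 8.76 ± 0.10 in PR and 8.42 ± 0.09 in FA (mean ± SD, n = 4). It ranged from 8.59 to 8.66 in CD, 8.66 to 8.91 in PR and 8.30 to 8.51 in FA, so that FA lay under both other groups. Within groups, the 6 probes also tended to vary together from mouse to mouse. Taking each value minus the mean of its diet, probe pairs correlated at 0.40 on average over the 12 brains, a description in which the points share arrays, against 0.002 over all pairs of the 23753 probes well above background on all arrays, and 0.01 between the 6 probes and the shared end.

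Beta genes split along the cluster in both comparisons with CD. Among the 17 beta genes well above background on all arrays, the log2 difference against CD ran against the gene's number in the cluster, with a correlation of r = -0.69 (rho = -0.78) for PR minus CD and r = -0.59 (rho = -0.70) for FA minus CD, and of r = -0.03 for FA minus PR. These correlations are over genes that share the same brains, and both use the CD arrays. The difference against CD also ran with the brightness of the beta probes (r = -0.65 and -0.59), which was itself correlated with the gene's number (r = 0.44); over the 23753 probes of the array the correlation with brightness was 0.04 for both. The part of brightness in the order along the cluster was not tested.

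Before Pcdhb15, the called beta genes were Pcdhb8, Pcdhb9, Pcdhb11 and Pcdhb12, and they were higher than CD wherever they were called. None of Pcdhb1 to Pcdhb7 was called. Pcdhb9, the beta gene at chr18:37562726-37562785, read 6.33, 6.19, 6.48 and 6.87 in CD, 6.98, 6.91, 7.08 and 7.22 in PR, and 7.04, 6.88, 7.18 and 7.18 in FA. All PR and FA values lay above all CD values. Pcdhb9 was called higher in PR than CD by 0.58 ± 0.14 (limma adjusted p = 0.00959) and higher in FA than CD by 0.60 ± 0.14 (limma adjusted p = 0.0065), a 1.49-fold and a 1.52-fold difference. With normexp background correction these differences were 0.31 and 0.33.

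Pcdhb12 read 8.37, 8.27, 8.45 and 8.33 in CD, 8.64, 8.49, 8.56 and 8.51 in PR, and 8.66, 8.68, 8.60 and 8.80 in FA. Every PR and FA value lay above every CD value. It was called higher in PR by 0.19 ± 0.06 (limma adjusted p = 0.0292) and in FA by 0.33 ± 0.06 (limma adjusted p = 0.00166). The PR call was lost without CD mouse 1, 2 or 4 or PR mouse 1 or 3, at adjusted p values from 0.0537 to 0.0756, and the FA call was kept in each of the 20 limma alternatives.

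Pcdhb8 and Pcdhb11 were well above background on no CD array and on all PR and FA arrays. The dimmest signal over background was 4.75 to 5.28 on CD arrays, against 3.23 to 3.82 on PR and 3.70 to 4.01 on FA arrays. Each CD value of Pcdhb8 lay below all PR values, but above the dimmest signals over background of the PR arrays, 3.23 to 3.82. The limit of the flag thus differed between arrays, and its lack alone does not mark a probe as absent in CD. Pcdhb8 read 4.01, 4.55, 4.71 and 4.28 in CD, 5.68, 5.09, 4.88 and 5.10 in PR, and 4.82, 4.99, 5.50 and 5.33 in FA. It was at least 1.12-fold higher in PR than CD (limma adjusted p = 0.0179) and at least 1.1-fold higher in FA than CD (limma adjusted p = 0.0181), a bound set against the dimmest signal over background on each CD array, which was 4.75 to 5.28. Pcdhb11 read 4.02, 3.79, 2.55 and 4.09 in CD, 4.08, 4.70, 4.63 and 4.74 in PR, and 4.27, 4.50, 4.48 and 5.05 in FA. FA and CD did not overlap and the probe was called higher in FA (limma adjusted p = 0.0418), but the bound was under 1, so no fold is given. The FA call of Pcdhb11 was lost in 12 of 20 limma alternatives, and with normexp its difference was 0.10 (adjusted p = 0.21). Pcdhb8 differed by 0.22 and 0.18 with normexp, and its FA call was lost without FA mouse 3 (adjusted p = 0.0524).

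Of the 7 beta genes from Pcdhb15 to Pcdhb21, Pcdhb15, Pcdhb20 and Pcdhb21 were called lower in PR than CD. The same genes with Pcdhb16 were called lower in FA than CD. Over all probes, 16.6% were called lower in PR and 18.0% in FA. This stretch of the cluster was chosen after the values were seen. Pcdhb20, at chr18:37666914-37666973, read 10.78, 10.70, 10.70 and 10.66 in CD, 10.40, 10.58, 10.46 and 10.41 in PR, and 10.38, 10.44, 10.25 and 10.46 in FA. No PR or FA value reached the lowest CD value. It was called lower in PR by -0.24 ± 0.06 (limma adjusted p = 0.0108) and in FA by -0.33 ± 0.06 (limma adjusted p = 0.00193).

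Pcdhb21, the next gene at chr18:37675857-37675916, read 10.40, 10.33, 10.31 and 10.20 in CD, 9.86, 10.08, 10.05 and 9.92 in PR, and 9.76, 9.88, 9.77 and 10.03 in FA. CD again lay above both other groups without overlap. The differences of -0.33 ± 0.08 in PR (limma adjusted p = 0.00799) and -0.45 ± 0.08 in FA (limma adjusted p = 0.0013) were called, and both calls were kept in each of the 20 limma alternatives.

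Pcdhb15 read 8.20, 8.33, 8.27 and 8.13 in CD, 7.96, 7.98, 7.98 and 7.99 in PR, and 7.89, 8.05, 7.93 and 8.16 in FA. The PR values lay close together and under all CD values, while the highest FA value passed the lowest CD value. It was called lower in PR by -0.26 ± 0.06 (limma adjusted p = 0.013) and in FA by -0.23 ± 0.06 (limma adjusted p = 0.0199). The FA call was lost without CD mouse 2 or 3 or FA mouse 1 or 3 and in the fit of 2 groups, at adjusted p values from 0.0505 to 0.056.

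Pcdhb16 read 8.84, 8.83, 8.76 and 8.58 in CD, 8.51, 8.69, 8.54 and 8.53 in PR, and 8.22, 8.49, 8.0 and 8.32 in FA. The FA values lay under all CD and all PR values, and PR overlapped CD. It was called lower in FA than CD by -0.49 ± 0.10 (limma adjusted p = 0.0039), while PR minus CD was -0.18 (limma adjusted p = 0.195) and FA minus PR -0.31 (limma adjusted p = 0.202). Pcdhb17 read 10.24, 10.13, 10.10 and 9.98 in CD, 9.96, 10.02, 9.99 and 9.95 in PR, and 9.91, 10.01, 9.74 and 10.01 in FA, with overlap in every comparison. FA minus CD for Pcdhb17 was -0.20 (limma adjusted p = 0.0563), which passed the threshold in 6 alternatives, among them without CD mouse 4 (adjusted p = 0.0256) and with quantile normalization (adjusted p = 0.0459).

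**Figure D3:**
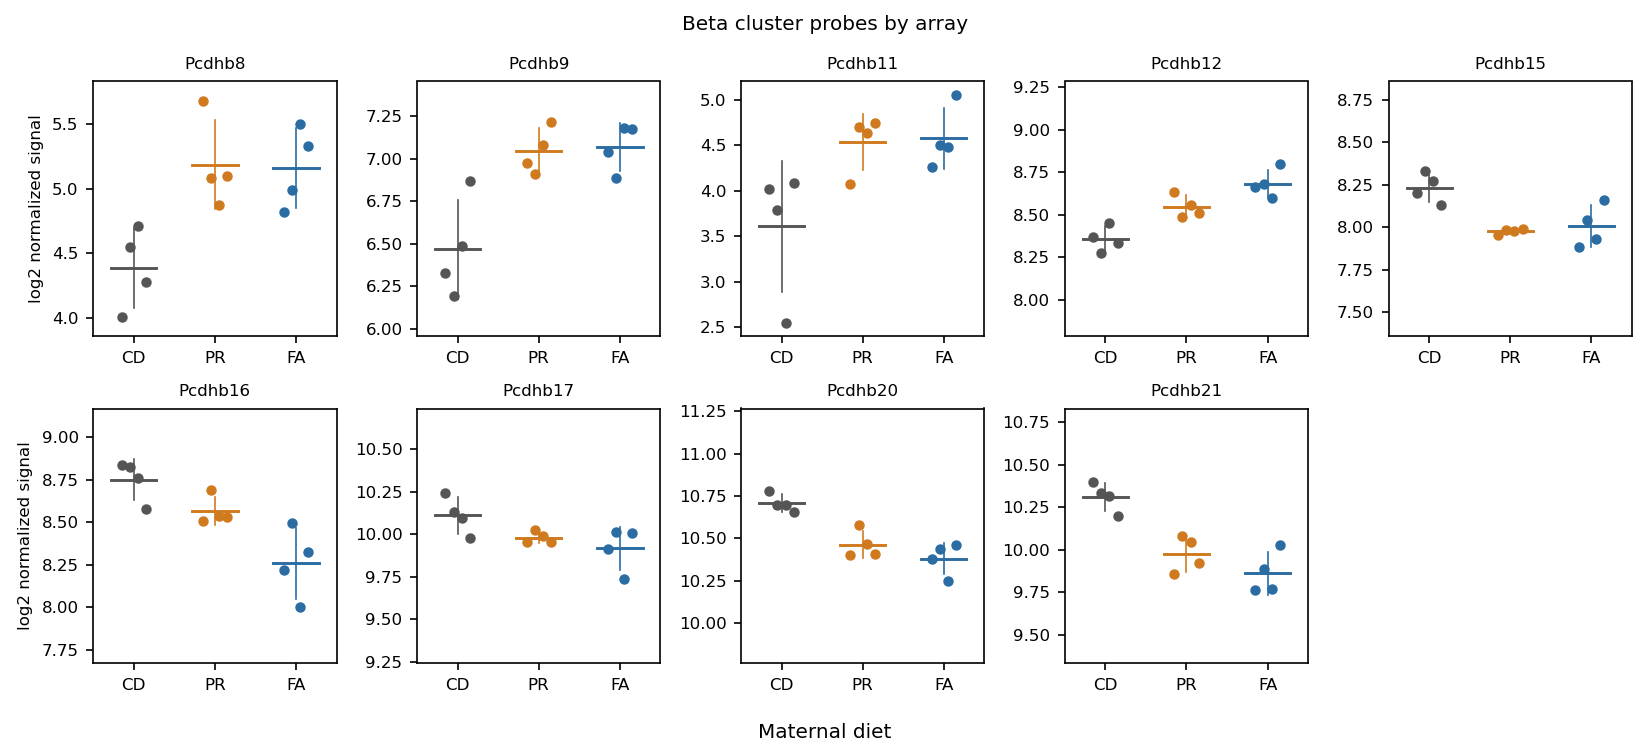
Points show the log2 normalized signal of 9 beta cluster probes in each of the 12 brains by maternal diet, with the group mean (horizontal line) and SD (vertical line, n = 4); each panel has its own vertical range. Pcdhb8, Pcdhb9 and Pcdhb12 lie higher in PR and FA than in CD without overlap, and Pcdhb20 and Pcdhb21 lie lower without overlap.

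The genes from Pcdhb15 to Pcdhb21 also varied together within groups. For the 6 of them flagged over background on every array, values minus the mean of the diet correlated between genes at 0.73 on average (from 0.44 to 0.91), against 0.12 among the 10 genes from Pcdhb3 to Pcdhb14 flagged in the same way, 0.30 between these 10 genes and the 6, and 0.002 over all probe pairs. The genes from Pcdhb3 to Pcdhb14 thus correlated less among themselves than with the 6. This split of the cluster was chosen after the values were seen, so it is a description only. The mean deviation of the 6 genes from their means over all arrays was 0.29, 0.22, 0.19 and 0.05 in CD, -0.12, 0.04, -0.02 and -0.09 in PR, and -0.21, -0.05, -0.29 and -0.03 in FA. All CD brains lay above all PR and FA brains. For the 10 genes from Pcdhb3 to Pcdhb14, the same mean was -0.01, -0.10, -0.07 and -0.14 in CD, 0.02, 0.05, 0.08 and 0.09 in PR, and -0.06, 0.03, -0.01 and 0.12 in FA, so that CD lay below PR and overlapped FA. Without any 1 array, the median difference of the 6 genes stayed from -0.28 to -0.19 in PR minus CD and from -0.36 to -0.27 in FA minus CD.

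The other beta genes were not called in any comparison. These were Pcdhb1 to Pcdhb7, Pcdhb10, Pcdhb13, Pcdhb14, Pcdhb18, Pcdhb19 and Pcdhb22. Among them Pcdhb18 came closest to the high-numbered pattern, at -0.25 for PR minus CD (limma adjusted p = 0.122) and -0.30 for FA minus CD (limma adjusted p = 0.0651). Pcdhb22, which follows Pcdhb21 directly, was at -0.10 for PR minus CD, with a 95% confidence interval from -0.28 to 0.09, and at -0.04 for FA minus CD, from -0.23 to 0.14.

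Gamma isoforms were mostly dim. Pcdhgc5, a C-type gamma isoform, read 5.86, 6.30, 5.81 and 6.07 in CD, 6.06, 5.86, 6.02 and 5.50 in PR, and 5.22, 6.19, 5.70 and 5.40 in FA. The groups overlapped, with FA minus CD at -0.38 and a 95% confidence interval from -0.84 to 0.08 (limma adjusted p = 0.188). Pcdhgb1 was at -0.33 for PR minus CD and -0.64 for FA minus CD, and neither was called (limma adjusted p = 0.349 and 0.0714). Pcdhga10 was called lower in PR and in FA than in CD (limma adjusted p = 0.0431 and 0.0434), but its higher values, from 4.48 to 5.22, were in CD, where it was well above background on no array, so no fold is given. Pcdhga1 was well above background on no CD array, and Pcdhga5 on 2 CD, 2 PR and 1 FA array, and neither was called.

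The 2 probes of the gamma shared end went apart. Gamma shared end 1 read 9.58, 9.83, 9.49 and 9.38 in CD, 9.06, 9.12, 8.98 and 9.0 in PR, and 8.98, 9.09, 8.71 and 9.07 in FA. All CD values lay above all PR and FA values. It was called lower in PR by -0.53 ± 0.11 (limma adjusted p = 0.00419; 1.45-fold) and in FA by -0.61 ± 0.11 (limma adjusted p = 0.00162; 1.53-fold).

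Gamma shared end 2 read 15.82, 15.84, 15.78 and 15.78 in CD, 16.00, 15.81, 15.82 and 15.87 in PR, and 15.83, 15.78, 15.70 and 15.80 in FA. The groups overlapped and none of its spots was saturated. Its differences were 0.07 for PR minus CD, with a 95% confidence interval from -0.04 to 0.18, and -0.03 for FA minus CD, from -0.14 to 0.08 (limma adjusted p = 0.316 and 0.714). Under scaling to the 75th percentile the first became -0.09 and the second -0.16, the latter then called (adjusted p = 0.0348), so its direction in PR depended on the scaling. The intervals of the 2 probes, which were listed with the same accessions, did not meet in either comparison.

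**Figure D4:**
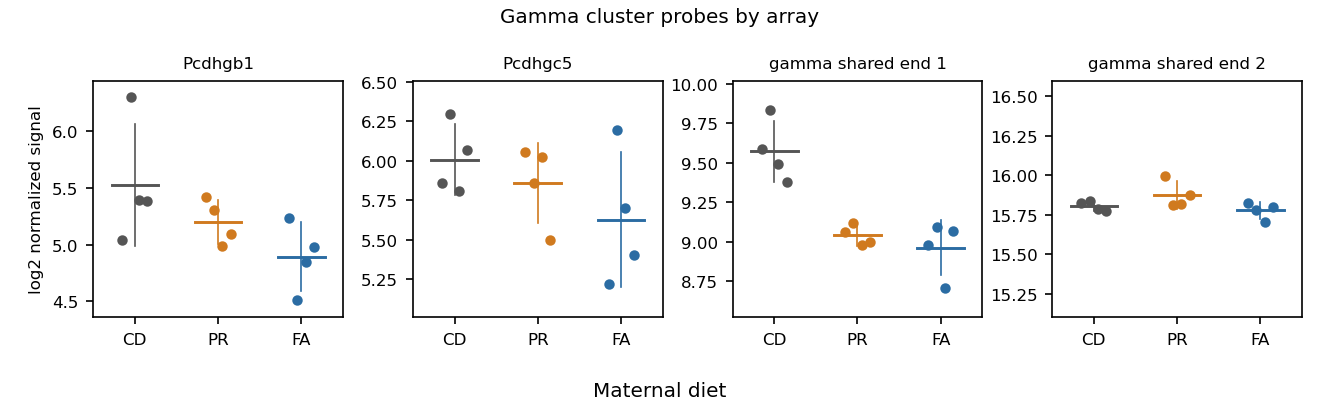
Points show the log2 normalized signal of the 4 gamma cluster probes with the background flag on every array, in each brain by maternal diet, with the group mean (horizontal line) and SD (vertical line, n = 4); each panel has its own vertical range. Gamma shared end 1 lies from 9.38 to 9.83 in CD and at or below 9.12 in PR and FA, while gamma shared end 2 stays from 15.70 to 16.00 in all groups.

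Within the span of the clusters lay 12 further probes that carry other names, among them both probes of Taf7 and that of Slc25a2, genes between the beta and gamma clusters. Of these, 1 was called lower in PR than CD, 2 lower and 1 higher in FA than CD, and 0 in FA against PR, where 2 had an unadjusted limma p under 0.05. Over all probes 16.6% were called lower in PR, 18.0% lower and 16.4% higher in FA. The lower calls came from 2 probes that were well above background on no array, and no fold is given for them. A probe without a gene name lay beside the Pcdha8 shared probe, at chr18:37154455-37154514. It was well above background on all arrays and was called in no comparison. In FA against PR it was 1 of the 2 probes with an unadjusted limma p under 0.05. Its FA minus PR difference was -0.25 (limma adjusted p = 0.163), with no overlap between the 2 groups. Around the clusters, a list of 15 neighbouring genes with 20 probes had 0 called lower and 2 called higher in PR than CD, and 1 lower and 5 higher in FA than CD, next to 16.6%, 13.4%, 18.0% and 16.4% of all probes. In FA against PR limma called 0, with 2 lower and 3 higher at an unadjusted p under 0.05. Rell2 gave both of the PR calls, at 0.58 (limma adjusted p = 0.000171) and 0.22 (limma adjusted p = 0.0117).

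Genes that shape and silence the clusters were counted beside them. Of 30 probes for 22 such genes, 4 were called lower and 1 higher in PR than CD, and 8 lower and 0 higher in FA than CD, where limma gave 12 lower and 0 higher at an unadjusted p under 0.05. Over all probes the shares called were 16.6% lower and 13.4% higher in PR, and 18.0% and 16.4% in FA. The lower count in PR lay near that of the array, while the higher count in PR lay below it. The median difference was -0.05 and -0.10. Smchd1, a chromatin protein known for silencing protocadherin promoters and the inactive X chromosome, was lower in both with 1 of its 2 probes, by -0.37 ± 0.06 in PR (limma adjusted p = 0.00109) and -0.45 ± 0.06 in FA (limma adjusted p = 0.000288), and the other probe was not called. Dnmt3a, a DNA methyltransferase, was lower by -0.25 ± 0.06 in PR (limma adjusted p = 0.0153) and -0.33 ± 0.06 in FA (limma adjusted p = 0.00284). Uhrf1, which brings maintenance methylation to replicated DNA, was lower in PR with 1 of its 2 probes, by -0.48 ± 0.11 (limma adjusted p = 0.00907), and Pds5a, a cohesin regulator, in FA by -0.47 ± 0.08 (limma adjusted p = 0.00103). In FA against PR limma called 0 of the 30, with 6 lower and 2 higher at an unadjusted p under 0.05.

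Partners of protocadherins at the membrane and in the cell were counted with 27 probes for 20 genes. In PR against CD 5 were called lower and 6 higher, in FA against CD 6 lower and 6 higher, next to 16.6% and 13.4%, and 18.0% and 16.4%, of all probes. In FA against PR limma called 0, with 2 lower and 1 higher at an unadjusted p under 0.05. Nckap1, a subunit of the WAVE complex that alpha protocadherin tails bind, was higher by 0.77 ± 0.09 in PR (limma adjusted p = 0.000145) and 0.67 ± 0.09 in FA (limma adjusted p = 0.000257). Fyn, a tyrosine kinase, was higher by 0.41 ± 0.06 in PR (limma adjusted p = 0.000886) and 0.44 ± 0.06 in FA (limma adjusted p = 0.000452). Rock2, a kinase that acts on actin, was lower by -0.32 ± 0.07 in PR (limma adjusted p = 0.00737) and -0.47 ± 0.07 in FA (limma adjusted p = 0.000791) with 1 of its 2 probes; the other was not called.

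Markers of some cell types moved with the diets, and those of others did not. Their counts stand next to 16.6% of all probes called lower and 13.4% higher in PR than CD, and 18.0% and 16.4% in FA than CD. Endothelial markers had 4 of 6 probes called higher in PR than CD and 0 lower, and 4 higher and 1 lower, Flt1, in FA than CD, and the log2 of their summed signal ranged from 15.17 to 15.23 in CD, 15.34 to 15.56 in PR and 15.36 to 15.54 in FA. Cerebellar markers had 4 of 8 probes called lower and 1 higher in FA than CD, with summed signals from 16.37 to 16.42 in CD, 16.28 to 16.33 in PR and 16.05 to 16.27 in FA. Pituitary markers had 2 of 6 probes called lower in both, with summed signals from 11.00 to 11.05 in CD, 10.02 to 10.28 in PR and 9.42 to 10.63 in FA. Immature neuron markers had 4 of 10 probes called lower and 1 higher in PR, and 7 lower and 1 higher in FA, although their summed signal did not fall, from 17.13 to 17.32 in CD and 17.33 to 17.34 in FA. Only 2 of the 6 pituitary probes were flagged on every array. Astrocyte markers had 2 of 11 probes called lower and 3 higher in PR than CD, oligodendrocyte markers 1 and 4 of 10, and microglial markers 2 and 3 of 9. Of 5 neuron probes, 1 was called lower, Snap25, and 1 higher, Nefl, in PR than CD. In FA than CD 0 were lower and 1 higher, Nefl. Choroid plexus markers, with 7 probes, and blood markers, with 3, had 0 called in either comparison with CD. Olfactory markers had 1 of 4 probes called higher in PR than CD and 0 called in FA against CD, but their median difference was -0.26 in both. Their summed signals overlapped, from 13.46 to 13.60 in CD, 12.99 to 13.57 in PR and 12.58 to 13.76 in FA. No marker list had a probe called in FA against PR by limma. The part of these cell types in the protocadherin differences was not tested.

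**Figure D5:**
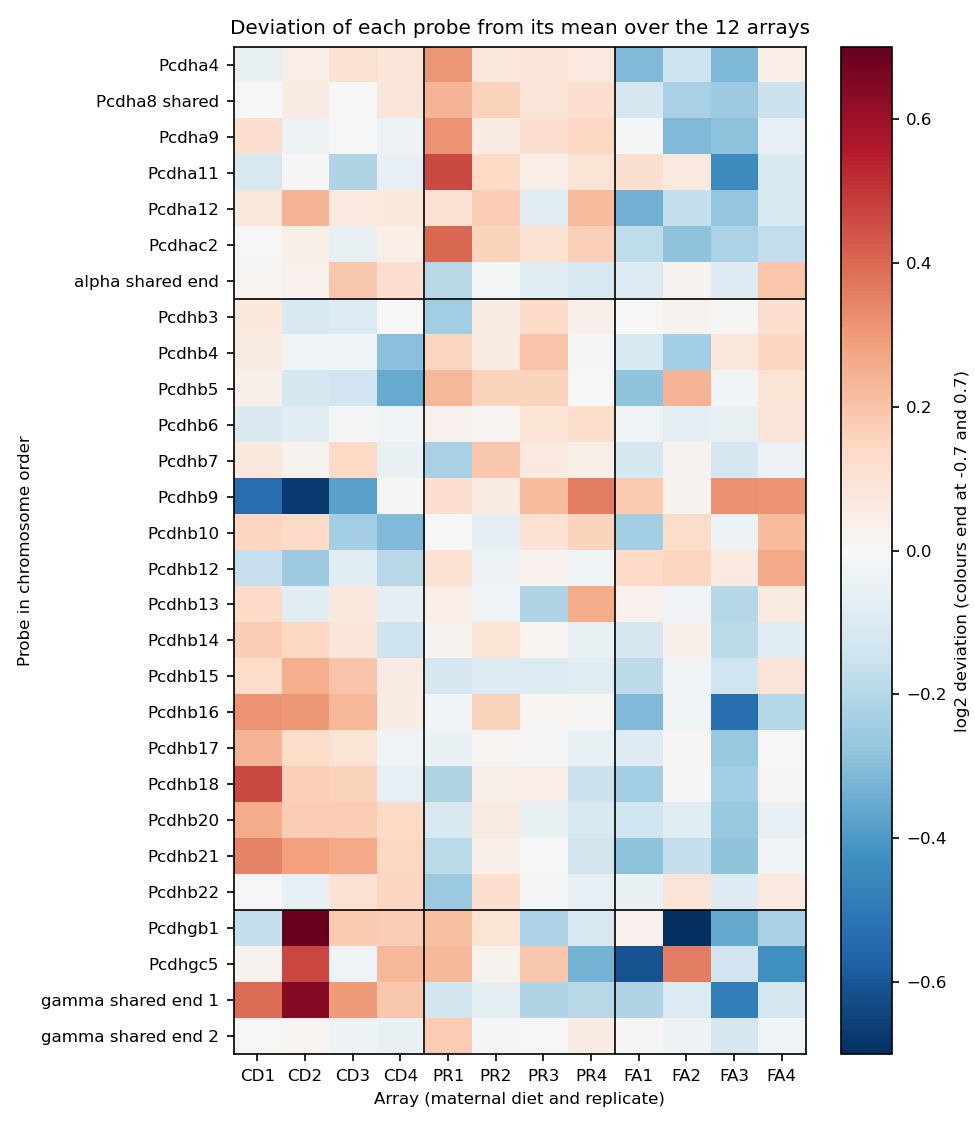
Colours give the log2 deviation of each of the 28 member probes well above background on all 12 arrays (rows, in chromosome order) from its mean over the arrays (columns, by diet and replicate). The lower part of the beta block is mostly red, for higher, in the CD arrays and pale or blue in PR and FA, and the alpha rows above the shared end are mostly red in PR and mostly blue in FA; 2 values lie beyond the ends of the colour scale at -0.7 and 0.7.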

How the data were processed

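Expression arrays of 12 brains were used, 4 per diet, grouped by their labels. The scanner files hold spot intensities that the authors deposited without normalization between arrays, from Agilent Feature Extraction 11.0.1.1, which had corrected each spot for local background. The authors also deposited a table of qspline-normalized intensities, 1 per probe and not log transformed, whose log2 was analysed here. A qspline function rewritten in R differed from that table by at most 0.00169 on the log2 scale. The promoter methylation arrays of the series were not analysed here.

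One limma model (version 3.58.1, R 4.3.3) held the CD, PR and FA arrays, and p-values were adjusted by Benjamini-Hochberg across the 39429 probes for each contrast. The background flag of a probe with several spots required it on 50% or more of them. No counts lie behind the values, and the number of arrays limits the precision. Symbols were those in the files, and shared probes were found through the RefSeq accessions listed there, matched to a GRCm38 table. Genes named with values in every array were the C-type genes on the array, the 3 brightest probes of each cluster, and up to 10 called probes per comparison with the largest difference among those carrying the flag throughout 1 of the groups, and from each list the called genes with the largest differences. The members and lists were chosen with earlier results of these data known. The fit was tested on simulated data with known differences. The alternatives were 75th percentile scaling, quantile normalization, qspline without outlier spots, normexp background correction with an offset of 50, a filter on dim probes, the replicate number as a block, a trended and robust variance, only the 2 groups compared, the study's limits and its Tukey test, and leaving out each array.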

Additional observations from a re-analysis of the deposited data

Results flagged for a closer look

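Among 114 groups of 4 values (38 probes in 3 diets), 6 had a sample that stood apart from the other 3 by Dixon's criterion, where chance gives about 1 in 20. The value of Pcdhga5 in FA mouse 3 was 7.25, against 3.71 or less in the other FA mice, and it was the only FA array with this probe well above background. Pcdha4 was 8.21 in PR mouse 1, against 7.97 to 8.0 in the others, and without that mouse the alpha variable exons were still below 0 in FA minus PR by median. Pcdha12 was 8.76 in CD mouse 2, against 8.59 to 8.60. Pcdhb16 was 8.69 in PR mouse 2, against 8.51 to 8.54. Pcdhb11 was 4.08 in PR mouse 1, against 4.63 to 4.74, and Pcdhb1 was 3.79 in CD mouse 4, against 2.66 to 2.69, with no array well above background.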

How the results depend on the processing

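Counts of called members changed most under stricter tests. At the study's 2-fold limit and an adjusted p under 0.0001, 0 members were called in each direction of each comparison. The methods' Tukey test called 4 members lower and 1 higher in PR than CD, 7 lower and 2 higher in FA than CD, and 0 lower and 0 higher in FA than PR. Its share over all probes is not given here. Scaling to the 75th percentile called 8 higher in PR than CD with a median difference of 0.0436, where it called 6281 of all 39429 probes higher. Normexp gave a median of -0.0281. Over all probes, 55.3% of the calls for PR minus CD were lower, but 43.8% with normexp and 44.5% after the filter on dim probes; for FA minus PR the share was 62.8%, and 83.1% with 75th percentile scaling. Leaving out 1 array gave 4 to 6 lower and 2 to 4 higher in PR than CD, 6 to 13 and 2 to 4 in FA against CD, and 0 to 2 and 0 to 0 in FA against PR. Higher calls fell to 2 in PR without CD mouse 1 or 2 and in FA without FA mouse 3. The medians of PR minus CD, FA minus CD and FA minus PR ran from -0.026 to 0.0564, -0.201 to -0.109 and -0.11 to -0.0646 without 1 array. Over all 39429 probes, leaving out 1 array gave 5301 to 6726 lower and 4077 to 5540 higher in PR than CD. In FA against CD it gave 6098 to 7177 and 5363 to 6671, and in FA against PR 19 to 163 and 15 to 96. The fit of only 2 groups called 0 members lower in FA than PR, beside 70 of all probes. The replicate number did not pair the mice: same-numbered arrays correlated from -0.06 to 0.20, and 5 of 12 correlated best with their own number. With it as a block, 5 and 3 were called in PR, 10 and 4 in FA against CD, and 0 in FA against PR (adjusted p = 0.0701 for the Pcdha8 shared probe and 0.0722 for Pcdhac2), and the PR call of Pcdhb12 was lost (adjusted p = 0.0565). Over all probes the replicate block called 6051 lower and 4935 higher in PR than CD, 6625 and 6085 in FA than CD, and 6 and 5 in FA against PR. Slide as a block could not be fitted. Of 1077 repeats of named differences, 49 lost and 16 gained a call, and 0 calls reversed. The repeats include differences not called in the main fit, which could not lose a call. Some of these changed sign, such as gamma shared end 2 in PR minus CD, from -0.09 to 0.09. The causes were not tested.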
